A study of Homo sapiens with 12 samples.

Results

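The genes that build cholesterol and fatty acids were examined in the human breast cancer line MDA-MB-231, of the triple-negative type and long established in culture, after treatment with DMSO or AZD0095. The members were 35 genes fixed by symbol: regulators of the pathway, enzymes of the early and late steps of sterol synthesis, a sterol transfer protein, enzymes that make, elongate, desaturate and activate fatty acids, and the lipoprotein receptor gene VLDLR. Of these, 33 were among the 6777 genes tested, and the late sterol genes SQLE and HSD17B7 were not analysed here. By role the 33 comprised 3 regulators, 7 early sterol genes, 8 late sterol genes, 1 sterol transfer gene, 5 fatty acid synthesis genes, 6 elongation and desaturation genes, 2 fatty acid activation genes and VLDLR.

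The study compared 2 groups of cells with no genetic change. The treated group received 10 nM AZD0095, which blocks the lactate exporter MCT4, and the control group received DMSO, the solvent, each for 4 h in medium with fetal bovine serum, which also carries lipoproteins. Each group had 3 RNA-seq libraries and 3 libraries of ribosome footprints, the mRNA fragments that ribosomes protect from RNase, for 12 libraries in all. According to its title the series concerns how a build-up of lactate acts on transcription and translation. No label states that replicates came from separate cultures. The p-values therefore measure only how far these libraries vary, which may be technical.

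Cholesterol is made from acetyl-CoA. The early steps lead through mevalonate to farnesyl diphosphate, and the late steps join farnesyl units into squalene, close the rings and trim the product to cholesterol. Fatty acids are built from the same acetyl-CoA after its carboxylation to malonyl-CoA. Both branches are known targets of the sterol regulatory element binding proteins, membrane-bound transcription factors that are released by cleavage when cell sterols are low.

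Levels are FPKM, fragments scaled to gene length and library size. The genes listed were those above 1 FPKM in every library, with a lowest value of 1.002, so genes below that level in any library were not examined. Pearson's r across genes between libraries of 1 group was 0.989 to 0.997 for RNA and 0.854 to 0.92 for footprints. RNA values show no steps of whole reads, so RNA depth is unknown. Footprint values do show such steps and implied 107087 to 192324 reads for a DMSO library and 141122 to 501351 for an AZD0095 library, a mean depth 2.03 times as high with AZD0095. Of the markers of mesenchymal-like breast cancer cells 7 of 8 were listed, with VIM at 2492 to 2799 FPKM in RNA. Of the luminal markers 5 of 10 were listed. These were KRT8 at 223 to 253 FPKM, KRT18 at 213 to 233, KRT19 at 125 to 166, ERBB2 at 15.4 to 21.4 and EPCAM at 9.33 to 12.5. ESR1, PGR, GATA3, FOXA1 and CDH1 were not listed, and none of 5 markers of other cells was listed.

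The RNA libraries of replicate 1 stood apart from replicates 2 and 3 in both groups, and the members took part in this. With treatment held in the model, limma gave 12 of the 33 members an adjusted p under 0.05 between replicate 1 and the others, against 22.6% of all genes tested, 16.9% higher and 5.73% lower. Of these 12, the 5 genes IDI1, MSMO1, SC5D, ELOVL6 and ACSL4 were higher in replicate 1 and the 7 genes SREBF1, SREBF2, INSIG1, ACACA, FASN, SCD and FADS2 were lower. All 3 regulators and both the synthase FASN and the desaturase SCD were thus on the low side in replicate 1, with SCD lower by a log2 difference of -0.27 and SREBF1 by -0.29. The labels give no batch, and what sets replicate 1 apart was not tested. Results below are therefore given also for the replicate 1 pair and for replicates 2 and 3, a split chosen after seeing the data.

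At baseline the RNA of the members spanned a wide range. The desaturase gene SCD was the most abundant member in the DMSO libraries at 213 ± 26.2 FPKM (SD, n = 3), above 95.3% of the genes tested. FADS2 stood at 148 ± 20.9 FPKM, ELOVL1 at 141 ± 6.16 FPKM, ELOVL5 at 131 ± 3.6 FPKM and the farnesyl diphosphate synthase gene FDPS at 130 ± 5.11 FPKM, values that do not differ beyond their spread from one neighbour to the next. The lowest members were VLDLR at 7.91 ± 1.0 FPKM and the malic enzyme gene ME1 at 8.07 ± 0.182 FPKM, again within their spread of each other. In all, the 33 members made up 0.383% to 0.399% of the summed FPKM of the listed genes across the 6 RNA libraries, with no gap between the groups.

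In RNA, VLDLR, FDFT1 and MSMO1 rose with AZD0095 and no member fell. The other 30 of the 33 did not pass the test. For the comparison, values were taken as log2(FPKM + 1) and fitted with limma over all genes, with a Benjamini-Hochberg adjusted p under 0.05 as the threshold. Among all genes 8.04% were called, 5.03% higher and 3.01% lower, so 3 of 33 is a share near the background. The median log2 fold change of the members was -0.02, beside 0.01 over all genes. At an unadjusted p under 0.05 there were 6 members, against 24.2% of all genes. The AZD0095 and DMSO libraries did not overlap for 7 members, 6 higher and 1 lower, against 29.2% of all genes, 17.7% higher and 11.5% lower. In these bulk libraries a change in how many cells express a gene and a change of its RNA per cell cannot be told apart.

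**Figure D1:**
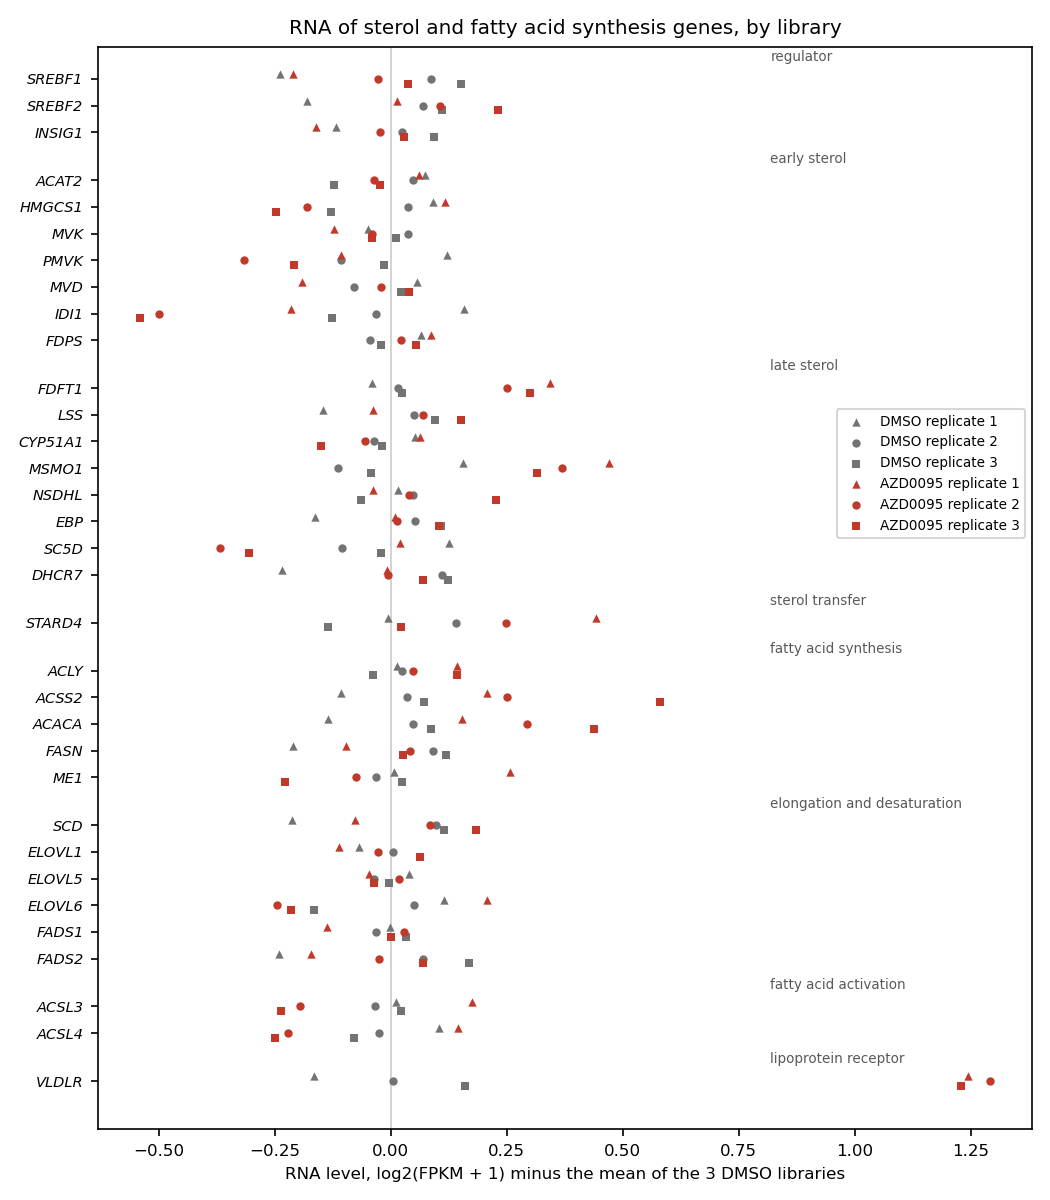
RNA level of each of the 33 members in each of the 6 RNA libraries, as log2(FPKM + 1) minus the mean of the 3 DMSO libraries, with genes grouped by role. Grey marks are DMSO and red marks AZD0095, and triangles, circles and squares are replicates 1, 2 and 3. Red and grey marks are well separated for VLDLR, separated by less for FDFT1, MSMO1 and, downward, IDI1, and mixed for most other members.

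The regulators were not called. SREBF2 encodes the member of the transcription factor family known to favour sterol genes, and SREBF1 the one known to favour fatty acid genes. SREBF2 RNA was at 29.1, 34.8 and 35.8 FPKM in DMSO replicates 1 to 3 and at 33.4, 35.7 and 39.0 FPKM in AZD0095 replicates 1 to 3. The groups overlapped, with a log2 fold change of 0.12 (95% interval -0.10 to 0.33, limma adjusted p = 0.5). INSIG1, which encodes the protein that holds the precursors in the endoplasmic reticulum when sterols are plentiful, and is itself a known target, read 30.1, 33.3 and 35.0 FPKM in DMSO and 29.2, 32.2 and 33.4 FPKM in AZD0095. Here too the groups overlapped, and within each group replicate 1 was lowest (log2 fold change -0.05, 95% interval -0.23 to 0.13). SREBF1 was at -0.07, with an interval of -0.33 to 0.19.

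The promoter of SREBF2 is shown because it was the only member window to hold the full sterol regulatory element, the site that these factors bind. The sequence is from RefSeq in build GRCh38.p14, chr22:41832855-41833104 on the plus strand, the 250 bases before the start of SREBF2, with the element in capitals.
SREBF2: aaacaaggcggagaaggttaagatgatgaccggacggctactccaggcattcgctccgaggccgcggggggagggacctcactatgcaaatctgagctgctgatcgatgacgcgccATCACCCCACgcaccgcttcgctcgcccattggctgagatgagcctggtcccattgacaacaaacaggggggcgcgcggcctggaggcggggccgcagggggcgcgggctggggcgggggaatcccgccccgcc
Windows of 300 bases, from 250 before to 50 after the start, were at hand for 30 of the 33 members, 40 windows in all, and both strands were searched. The full element, a run of 10 letters, was in 1 member window, or 2.5%, in 0.0456% of all 35116 promoter windows and in 0.0362% of those of listed genes. Its core CACCCCAC, which lies within it, was likewise in that 1 member window, against 2.79% of all windows and 2.5% of those of listed genes. The E-box CACGTG was in 12.5% of the member windows, those of ELOVL5, INSIG1, SC5D and LSS, against 7.26% of all windows and 10.3% of the windows of genes listed here. The NF-Y box CCAAT was in 65.0% of the member windows and 34.6% of all, and the Sp1 box GGGCGG in 87.5% and 45.0%. The composite element of ATF4 and C/EBP factors, searched as TGATGNAAN, was in 0 member windows, in 3.61% of all and in 1.91% of those of listed genes. Among windows of listed genes the NF-Y box was in 35.4% and the Sp1 box in 68.8%. A match describes the letters of a window and is no evidence of binding, and a missing match says only that these letters are not in it.

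None of the 7 early sterol genes passed the test in either direction, and their median log2 fold change was -0.06. IDI1, the isomerase that readies isopentenyl diphosphate for chain growth, was the member that came nearest. Its RNA was at 33.7, 29.4 and 27.5 FPKM in DMSO and at 25.8, 21.0 and 20.4 FPKM in AZD0095. All 3 treated libraries lay below all 3 controls, and replicate 1 was highest in both groups. The log2 fold change was -0.42 (95% interval -0.67 to -0.17, limma adjusted p = 0.053), just short of the threshold. It was -0.37 within the replicate 1 pair and -0.44 in replicates 2 and 3, where the adjusted p was 0.00093. IDI1 was also called with replicate 1 as a batch (adjusted p = 0.00052), with median centring (0.032) and with quantile normalization (0.031), while over all 15 alternatives its adjusted p ran up to 0.19. The gene, ENSG00000067064, lies on chromosome 10 from 1039152 to 1056704 and overlaps WDR37, which is also listed. How reads were assigned by strand is not given, so reads of IDI1 and WDR37 may not be fully separated.

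The other early genes stayed nearer to 0. PMVK, the kinase that phosphorylates phosphomevalonate, was at 14.7, 12.4 and 13.3 FPKM in DMSO and 12.4, 10.6 and 11.5 FPKM in AZD0095. The groups touched at 12.4 FPKM as rounded (log2 fold change -0.21, 95% interval -0.42 to 0.00, limma adjusted p = 0.21), and with replicate 1 as a batch the adjusted p was 0.048. The remaining 5 ran from -0.11 for HMGCS1, the synthase that commits acetyl units to the mevalonate route, to 0.06 for FDPS. Between these were the kinase MVK (-0.06), the decarboxylase MVD (-0.06) and the thiolase ACAT2 (0.00), whose gene overlaps the listed genes TCP1 and SOD2. The intervals of these 5 reached no lower than -0.36 and no higher than 0.17.

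Among the 8 late sterol genes 2 rose, 0 fell and 6 did not pass. The median log2 fold change of the 8 was 0.05. FDFT1 encodes squalene synthase, the first enzyme committed to sterols, which sits directly after the farnesyl diphosphate made by FDPS. FDFT1 RNA was at 76.0, 79.1 and 79.5 FPKM in DMSO and at 99.4, 93.2 and 96.5 FPKM in AZD0095. Every treated library lay above every control, and both groups were tight. FDFT1 rose by 0.30 ± 0.05 on the log2 scale (SE, limma adjusted p = 0.012), by 0.38 in the replicate 1 pair and 0.26 in replicates 2 and 3. The call was lost without DMSO replicate 2 (adjusted p = 0.067) and without AZD0095 replicate 2 (0.051), while the log2 fold change was 0.31 and 0.32 in these fits.

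MSMO1 encodes the methylsterol monooxygenase that oxidizes methyl groups of the ring system for their removal. Its RNA was at 34.2, 28.2 and 29.7 FPKM in DMSO and at 42.8, 39.8 and 38.3 FPKM in AZD0095. The groups did not overlap, although DMSO replicate 1 came closer to the treated libraries than the other controls did. MSMO1 rose by 0.39 ± 0.08 on the log2 scale (SE, limma adjusted p = 0.03), by 0.32 in the replicate 1 pair and by 0.42 in replicates 2 and 3. The call was lost without any 1 of 4 libraries. The log2 fold change was 0.33 without DMSO replicate 2 (adjusted p = 0.13), 0.36 without DMSO replicate 3 (0.093), 0.39 without AZD0095 replicate 2 (0.11) and 0.42 without AZD0095 replicate 3 (0.064), each within 1 SE of the value from all libraries. The gene, ENSG00000052802, lies on chromosome 4 from 165327669 to 165343164. Its promoter, RefSeq GRCh38.p14 chr4:165327419-165327668 on the plus strand, is shown because MSMO1 was called. Its window holds 4 NF-Y boxes, in capitals as CCAAT or, on the other strand, ATTGG. Windows of members that were not called also held this box, with 5 matches each for MVK and NSDHL, so it does not mark the called genes.
MSMO1: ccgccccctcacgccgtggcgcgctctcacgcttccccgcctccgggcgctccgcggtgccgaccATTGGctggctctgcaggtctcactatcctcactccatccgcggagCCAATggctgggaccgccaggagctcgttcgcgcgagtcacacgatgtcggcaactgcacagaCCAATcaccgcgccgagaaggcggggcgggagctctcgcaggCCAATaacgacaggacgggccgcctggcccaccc

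The 6 late genes that did not pass lay between -0.22 and 0.08. SC5D, the desaturase that places a double bond in the sterol ring late in the route, was lowest at -0.22 (95% interval -0.47 to 0.03, limma adjusted p = 0.27). It was at 37.8, 32.1 and 34.1 FPKM in DMSO and 35.1, 26.6 and 27.8 FPKM in AZD0095, so that replicate 1 again read highest in both groups. SC5D was called lower with replicate 1 as a batch (adjusted p = 0.019) and in replicates 2 and 3 alone (-0.28, 0.013). The dehydrogenase NSDHL stood at 0.08, the cyclase LSS at 0.06, the isomerase EBP at 0.04, the reductase DHCR7 at 0.02 and the demethylase CYP51A1 at -0.05. CYP51A1 and MSMO1 act close to each other in the route, and the interval of CYP51A1, -0.21 to 0.11, did not reach the change of MSMO1.

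The sterol transfer gene STARD4, whose product carries cholesterol between membranes, was not called. It was at 14.1, 15.7 and 12.8 FPKM in DMSO and 19.6, 17.0 and 14.4 FPKM in AZD0095. The treated values spread downward into the range of the controls (log2 fold change 0.24, 95% interval -0.04 to 0.51, limma adjusted p = 0.28). It was 0.45 in the replicate 1 pair and 0.13 in replicates 2 and 3.

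None of the 5 fatty acid synthesis genes passed the test, and their median was 0.12 on the log2 scale. ACSS2 makes acetyl-CoA from acetate, ACLY makes it from citrate and ACACA carboxylates it to malonyl-CoA. For all 3 the treated libraries lay above all controls. ACSS2 was at 9.68, 10.8 and 11.1 FPKM in DMSO and 12.3, 12.7 and 16.2 FPKM in AZD0095 (log2 fold change 0.35, 95% interval 0.09 to 0.60, limma adjusted p = 0.1). ACACA was at 15.2, 17.4 and 17.9 FPKM in DMSO and 18.8, 20.8 and 23.1 FPKM in AZD0095 (0.30, interval 0.08 to 0.52, adjusted p = 0.11). ACLY was at 116, 117 and 112 FPKM in DMSO and 127, 119 and 127 FPKM in AZD0095 (0.12, interval 0.00 to 0.23, adjusted p = 0.21). In none of them did the separation pass the threshold.

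The same genes read differently once replicate 1 was held apart. With replicate 1 as a batch ACSS2 (adjusted p = 0.014) and ACACA (0.0064) were called higher, while ACLY was not (0.075). Their log2 fold changes were alike in the replicate 1 pair and in replicates 2 and 3, 0.32 and 0.36 for ACSS2 and 0.29 and 0.30 for ACACA. FASN, the multi-domain enzyme that assembles palmitate from malonyl-CoA, was at 51.8, 64.0 and 65.3 FPKM in DMSO and 56.1, 61.8 and 61.2 FPKM in AZD0095. Its groups overlapped fully, with a log2 fold change of -0.01 and a 95% interval of -0.22 to 0.20. ME1, a malic enzyme that supplies NADPH, was at -0.02, with 0.25 in the replicate 1 pair and -0.15 in replicates 2 and 3.

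Of the 6 genes that elongate and desaturate fatty acids none passed in either direction, and their log2 fold changes ran from -0.09 for ELOVL6 to 0.06 for SCD. SCD, the stearoyl-CoA desaturase that makes oleate, was at 183, 227 and 230 FPKM in DMSO and 201, 225 and 241 FPKM in AZD0095. ELOVL6, which extends palmitate, was at 17.1, 16.3 and 13.9 FPKM in DMSO and 18.3, 13.1 and 13.4 FPKM in AZD0095. In both genes the spread between replicates exceeded the difference between groups. The elongases ELOVL1 and ELOVL5 were each at -0.02, the front-end desaturases FADS1 and FADS2 at -0.03 and -0.04, and the intervals of ELOVL5 (-0.13 to 0.09) and FADS1 (-0.17 to 0.10) were the narrowest of the 6. FADS1 and FADS2 overlap each other on chromosome 11, and how reads were split between them is not given in the sources used here.

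The acyl-CoA synthetases ACSL3 and ACSL4, which activate fatty acids for use in lipids, were not called. ACSL3 was at 40.7, 39.4 and 41.0 FPKM in DMSO and 45.7, 35.1 and 34.1 FPKM in AZD0095. ACSL4 was at 57.0, 52.0 and 50.1 FPKM in DMSO and 58.7, 45.3 and 44.4 FPKM in AZD0095. In both, AZD0095 replicate 1 lay above all the controls and AZD0095 replicates 2 and 3 lay below them all. The log2 fold change was -0.09 for ACSL3 (95% interval -0.33 to 0.16) and -0.11 for ACSL4 (-0.35 to 0.14). In replicates 2 and 3 alone ACSL3 was called lower, at -0.21 (limma adjusted p = 0.035), against 0.16 in the replicate 1 pair.

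VLDLR, a receptor that takes up triglyceride-rich lipoproteins and binds reelin, changed most of the members. Its RNA was at 6.91, 7.91 and 8.91 FPKM in DMSO and at 20.0, 20.7 and 19.8 FPKM in AZD0095. All treated libraries were more than double the highest control, and they lay close together. VLDLR rose by 1.25 ± 0.10 on the log2 scale (SE, 95% interval 1.04 to 1.47, limma adjusted p = 0.00029), by 1.41 in the replicate 1 pair and 1.18 in replicates 2 and 3. Its interval lay wholly above those of the other 32 members, of which FDFT1 and MSMO1 also passed the test. VLDLR kept its call under each of 15 alternatives, with log2 fold changes of 1.17 to 1.35 and adjusted p of at most 0.0059.

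The VLDLR gene, ENSG00000147852, lies on chromosome 9 from 2621787 to 2660056. Its promoter, RefSeq GRCh38.p14 chr9:2621537-2621786 on the plus strand, is shown because VLDLR had the largest change. Its window holds 2 Sp1 boxes that share bases, in capitals as they read on the other strand (CCGCCC), and none of the other motifs searched.
VLDLR: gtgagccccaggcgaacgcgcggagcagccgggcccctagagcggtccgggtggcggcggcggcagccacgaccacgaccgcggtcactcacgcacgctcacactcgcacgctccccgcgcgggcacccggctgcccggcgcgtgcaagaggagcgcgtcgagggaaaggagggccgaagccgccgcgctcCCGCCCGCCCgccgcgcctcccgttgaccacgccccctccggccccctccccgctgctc

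**Figure D2:**
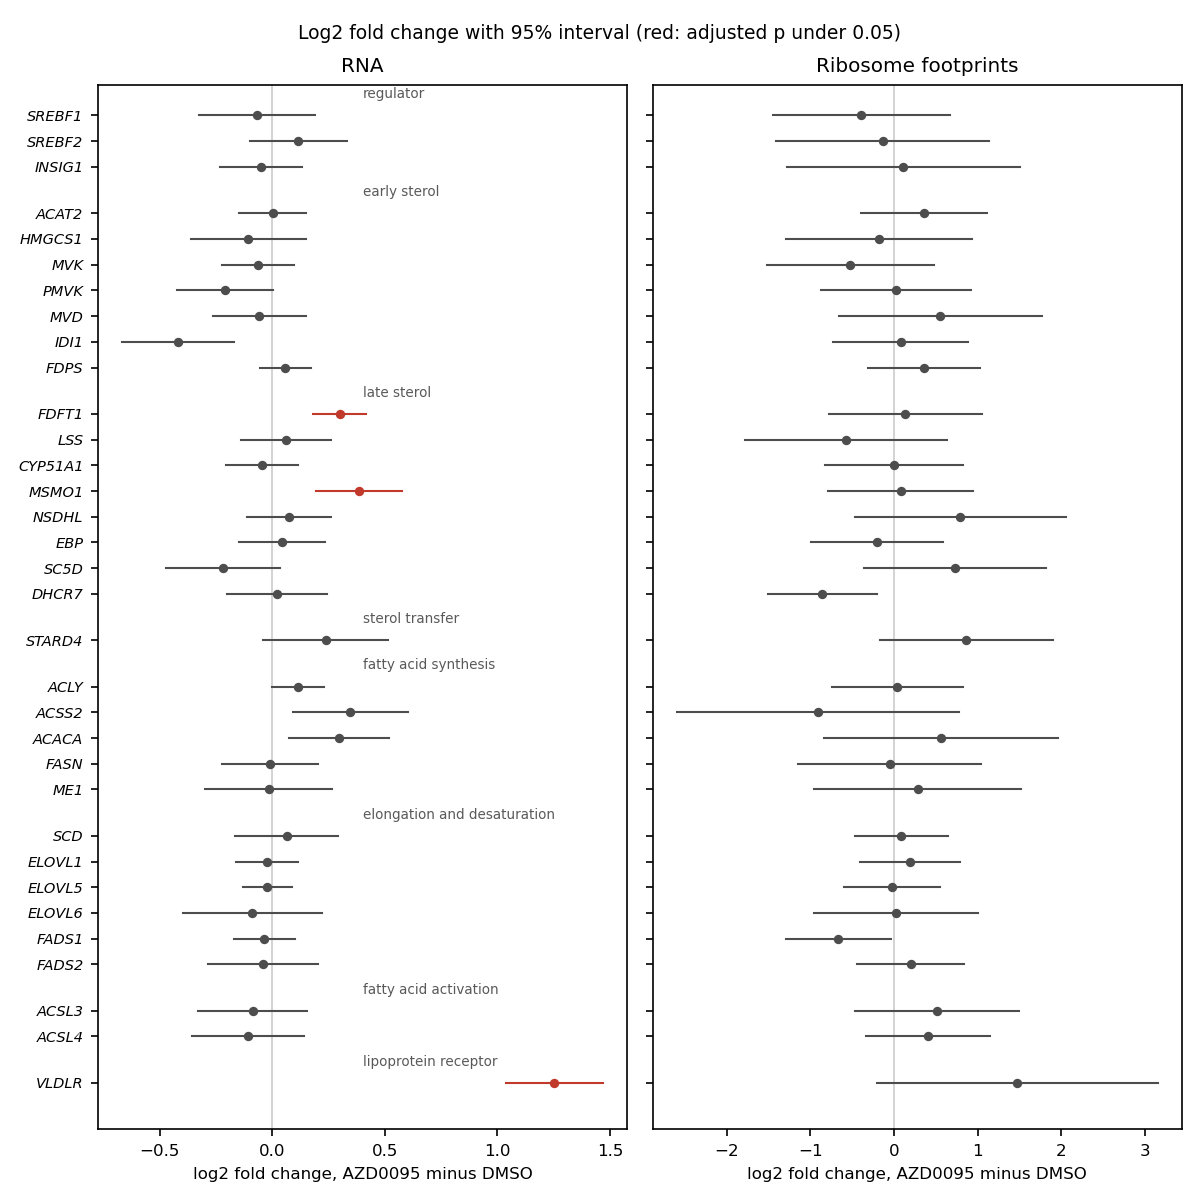
Log2 fold change of each member, AZD0095 minus DMSO, in RNA on the left and in ribosome footprints on the right, with 95% intervals from limma over 3 libraries per group. Red marks the 3 members with an adjusted p under 0.05 in RNA (VLDLR, MSMO1 and FDFT1); in footprints no member passed, and the horizontal axis there spans a wider range because the intervals are wider.

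Set side by side, the branches gave medians near 0. The 15 early and late sterol genes had a median log2 fold change of 0.00 with 2 called. The 13 genes that make, elongate, desaturate and activate fatty acids had -0.02 with 0 called. Among all genes 8.04% were called, and these counts are too small to set the branches apart. The groups did not overlap for 2 sterol genes higher and 1 lower, and for 3 fatty acid genes higher and 0 lower. Over all genes this held for 17.7% higher and 11.5% lower. Without VLDLR the 32 remaining members had a median of -0.02 and log2 fold changes between -0.42 and 0.39. Averaged over its genes, the early sterol role read -0.05, -0.15 and -0.14 in AZD0095 replicates 1 to 3 relative to the DMSO mean, against 0.07, -0.02 and -0.05 in the DMSO libraries. The late role read 0.10, 0.04 and 0.09 against -0.03, 0.00 and 0.03. The fatty acid synthesis role read 0.14, 0.11 and 0.19 against -0.09, 0.03 and 0.05. These averages are descriptions, and no test between roles was made.

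With replicate 1 as a batch, a term chosen after seeing the data, 8 members passed, 5 higher and 3 lower. Among all genes 24.5% passed, 12.9% higher and 11.6% lower, so this is again a share near the background. The higher ones were VLDLR, FDFT1, MSMO1, ACSS2 and ACACA, and the lower ones IDI1, PMVK and SC5D. The 3 members called without the batch term were among these 8. In the sterol route IDI1, PMVK and SC5D were lower in this fit while FDFT1 and MSMO1 were higher. Calls on both sides were also seen among all genes. Without the batch term IDI1, PMVK and SC5D were not called (limma adjusted p = 0.053, 0.21 and 0.27). The count was also 8 in replicates 2 and 3 alone, where ACSL3 took the place of PMVK. In that fit 1395 of all 6777 genes were called, so this too is near the background.

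**Figure D3:**
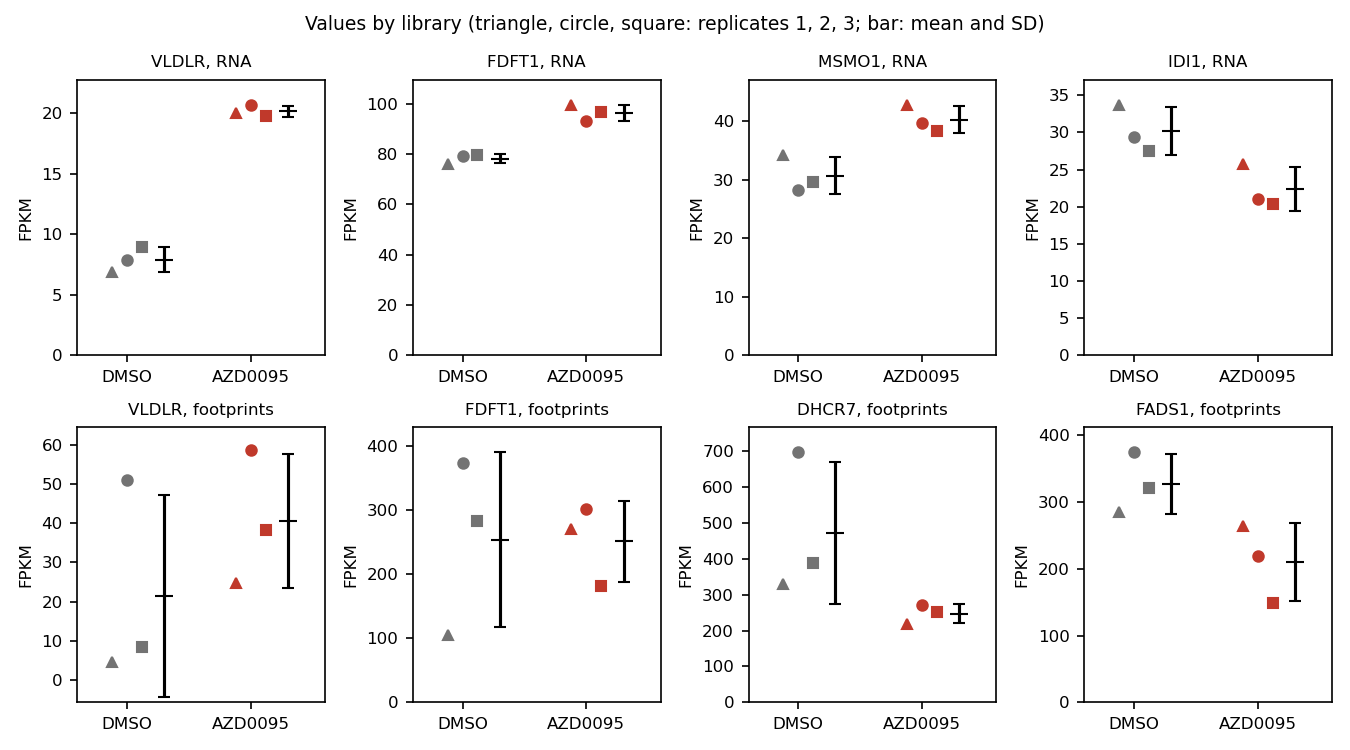
FPKM by library for VLDLR, FDFT1, MSMO1 and IDI1 in RNA (top) and for VLDLR, FDFT1, DHCR7 and FADS1 in footprints (bottom), DMSO in grey and AZD0095 in red, with the mean and SD of 3 libraries in black. In RNA the groups are apart for all 4 genes, as for 29.2% of all genes tested, and IDI1 did not pass the test. In footprints DHCR7 and FADS1 are lower with AZD0095 without passing the test, and the DMSO libraries of VLDLR range from 4.72 to 51.1 FPKM.

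Ribosome footprints gave no call. With AZD0095 against DMSO 0 of the 33 members passed by limma, as did 0 of 6777 genes (0%), and 2 members had an unadjusted p under 0.05, against 7.82% of all genes. The median log2 fold change of the members was 0.08, beside 0.04 over all genes. The median 95% interval of a member reached 0.98 to either side in footprints and 0.21 in RNA, so changes of the size seen for FDFT1 or MSMO1 in RNA were not detectable in footprints at this depth. The groups did not overlap for 2 members, both lower, against 13% of all genes, 7.19% higher and 5.77% lower.

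These 2 were DHCR7 and FADS1. DHCR7 encodes the reductase that makes cholesterol from its immediate precursor. DHCR7 footprints were at 330, 696 and 388 FPKM in DMSO and at 218, 270 and 252 FPKM in AZD0095. All treated libraries lay below all controls, and DMSO replicate 2 was far above the rest. The log2 fold change was -0.86 (95% interval -1.51 to -0.21, limma unadjusted p = 0.014, adjusted p = 0.63), and -0.54 without DMSO replicate 2. DHCR7 RNA differed by 0.02. FADS1, the delta-5 desaturase of polyunsaturated fatty acids, was at 285, 374 and 321 FPKM in DMSO and 264, 219 and 148 FPKM in AZD0095. Its log2 fold change was -0.66 (95% interval -1.29 to -0.03, limma unadjusted p = 0.04, adjusted p = 0.63). In a fit with log2 depth as a covariate, added after seeing the data, it was -0.32 for FADS1 and -0.81 for DHCR7.

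Footprints of the 3 genes called in RNA were not called, and the libraries of VLDLR and FDFT1 varied widely within a group. VLDLR was at 4.72, 51.1 and 8.43 FPKM in DMSO and at 24.8, 58.6 and 38.2 FPKM in AZD0095. DMSO replicate 2 lay above 2 of the 3 treated libraries, so the groups overlapped. The log2 fold change was 1.47 with a 95% interval of -0.21 to 3.16 (limma adjusted p = 0.68), and 2.42 without DMSO replicate 2 or 0.82 without DMSO replicate 1. FDFT1 was at 105, 373 and 282 FPKM in DMSO and 270, 302 and 181 FPKM in AZD0095, a difference of 0.14 (-0.78 to 1.06). MSMO1 was steadier, at 70.2, 64.3 and 51.1 FPKM in DMSO and 71.5, 60.0 and 63.5 FPKM in AZD0095 (0.08, -0.79 to 0.95). IDI1 footprints, at 106, 91.7 and 95.2 FPKM in DMSO and 145, 72.9 and 104 FPKM in AZD0095, differed by 0.08 with an interval of -0.72 to 0.89.

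Over the other roles footprints differed from RNA mainly in their spread. The regulators SREBF1, SREBF2 and INSIG1 were at log2 fold changes of -0.39, -0.14 and 0.11, and INSIG1 alone ranged from 16.5 to 84.2 FPKM within DMSO. The early sterol genes ran from -0.52 for MVK to 0.55 for MVD, with a median of 0.08. The late sterol genes ran from -0.86 for DHCR7 to 0.79 for NSDHL, with a median of 0.04. NSDHL was at 92.1, 47.0 and 19.8 FPKM in DMSO and 45.0, 92.9 and 111 FPKM in AZD0095, so the spread within each group exceeded the difference between the means. Its log2 fold change was 1.31 without DMSO replicate 1, 0.23 without DMSO replicate 3 and 1.70 in replicates 2 and 3. SC5D, lower in RNA without passing, was at 0.73 in footprints (95% interval -0.36 to 1.82). STARD4 was at 49.9, 28.9 and 30.6 FPKM in DMSO and 43.8, 76.1 and 83.2 FPKM in AZD0095, with a log2 fold change of 0.87 (95% interval -0.17 to 1.90, limma adjusted p = 0.7).

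Fatty acid genes likewise gave wide intervals at low footprint levels and narrower ones at high levels. ACSS2 was at 83.3, 48.5 and 35.6 FPKM in DMSO and 88.0, 6.46 and 33.8 FPKM in AZD0095. AZD0095 replicate 2 was far below all others, and the log2 fold change of -0.91 had an interval of -2.60 to 0.78. It was 0.06 without AZD0095 replicate 2 and -1.73 without AZD0095 replicate 1, so neither its sign nor its size held over single libraries. ACACA was at 5.37, 26.3 and 19.6 FPKM in DMSO and 27.8, 15.7 and 22.9 FPKM in AZD0095 (0.56, interval -0.84 to 1.97). It was -0.07 without DMSO replicate 1, 0.98 without DMSO replicate 2 and -0.25 in replicates 2 and 3. At the other end, SCD was at 306, 253 and 220 FPKM in DMSO and 256, 282 and 284 FPKM in AZD0095 (0.09, interval -0.47 to 0.65). ELOVL5 was at -0.02 with an interval of -0.59 to 0.55, and ACSL3 and ACSL4 at 0.51 and 0.41. Elsewhere too the values moved with the libraries and settings used, over the alternatives from -0.47 to 0.51 for FDFT1 and from -0.77 to 0.11 for MVK. For these genes only changes larger than the intervals could have been seen.

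Reads could be recovered for 5 members whose values were whole multiples of 1 read, to within 0.03 of it, in every footprint library, as held for 1494 of the genes tested. SCD rested on 42, 30 and 47 reads in DMSO and 40, 68 and 158 in AZD0095. PMVK rested on 5, 5 and 12 reads in DMSO and 8, 7 and 34 in AZD0095. ME1 had 60 reads over all 6 libraries, ACAT2 277 and ELOVL1 294. The scale differed by library, 1 read on 1 kb being worth 9.34 FPKM in DMSO replicate 2 and 1.99 FPKM in AZD0095 replicate 3. The part of depth in the footprint differences was not tested beyond the fit with depth as a covariate, in which 0 members passed.

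Translational efficiency, the ratio of footprints to RNA, was compared between the treatments as an interaction in 1 limma model over all 12 libraries. No member passed, as did 0% of all genes, and 2 members had an unadjusted p under 0.05, against 8.53% of all genes. They were DHCR7, at -0.88 on the log2 scale (95% interval -1.60 to -0.16, limma adjusted p = 0.47), and FADS1, at -0.63 (-1.23 to -0.03, adjusted p = 0.57). Both rest on the footprint values given above, set against RNA that differed by 0.019 and -0.035, and are no separate evidence. The model takes 1 spread per gene for both assays, although footprints vary more than RNA, so its intervals can be too narrow. The median SE of a member was 0.445 here and 0.451 for the footprint difference alone. The median over the members was 0.11, beside 0.03 over all genes. For VLDLR the interaction was 0.22 with an interval of -1.68 to 2.12, which covers both no change of the ratio and changes as large as that of its RNA.

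In DMSO the members differed widely in how many footprints they had for their RNA. The median gene had 2.21 times as much footprint as RNA FPKM, and values here are log2 ratios relative to that gene. DHCR7 stood highest at 1.95 ± 0.35 (SE, n = 3), above 94.9% of all genes, followed by MVK at 1.77 ± 0.35 and PMVK at 1.44 ± 0.20. SREBF2 stood lowest at -1.83 ± 0.53, above 5.33% of all genes, followed by ACACA at -1.40 ± 0.71 and INSIG1 at -1.10 ± 0.70. Neighbours in this order do not differ beyond their errors. By role, the median was -1.10 for the regulators, 0.24 for the early sterol genes, -0.28 for the late ones and -0.83 for fatty acid synthesis, where the middle range of all genes, from the 25th to the 75th percentile, ran from -0.74 to 0.77. For elongation and desaturation the median was -0.14, with 3 of 6 genes above the median gene. All 3 regulators and both FASN (-0.90) and SCD (-0.87) were below the median gene. Other fatty acid genes were above it, among them ACSS2 (1.18), FADS1 (1.05) and ELOVL6 (0.96). Of all 33 members 14 were above it. The numerator and denominator come from different library types, so this is a description with no test. VLDLR was at -0.46 ± 1.04, an error that leaves its place in the order unknown. With AZD0095 the extremes were PMVK at 1.63 ± 0.33 and, again lowest, SREBF2 at -2.15 ± 0.08, while DHCR7 stood at 1.00 ± 0.09.

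**Figure D4:**
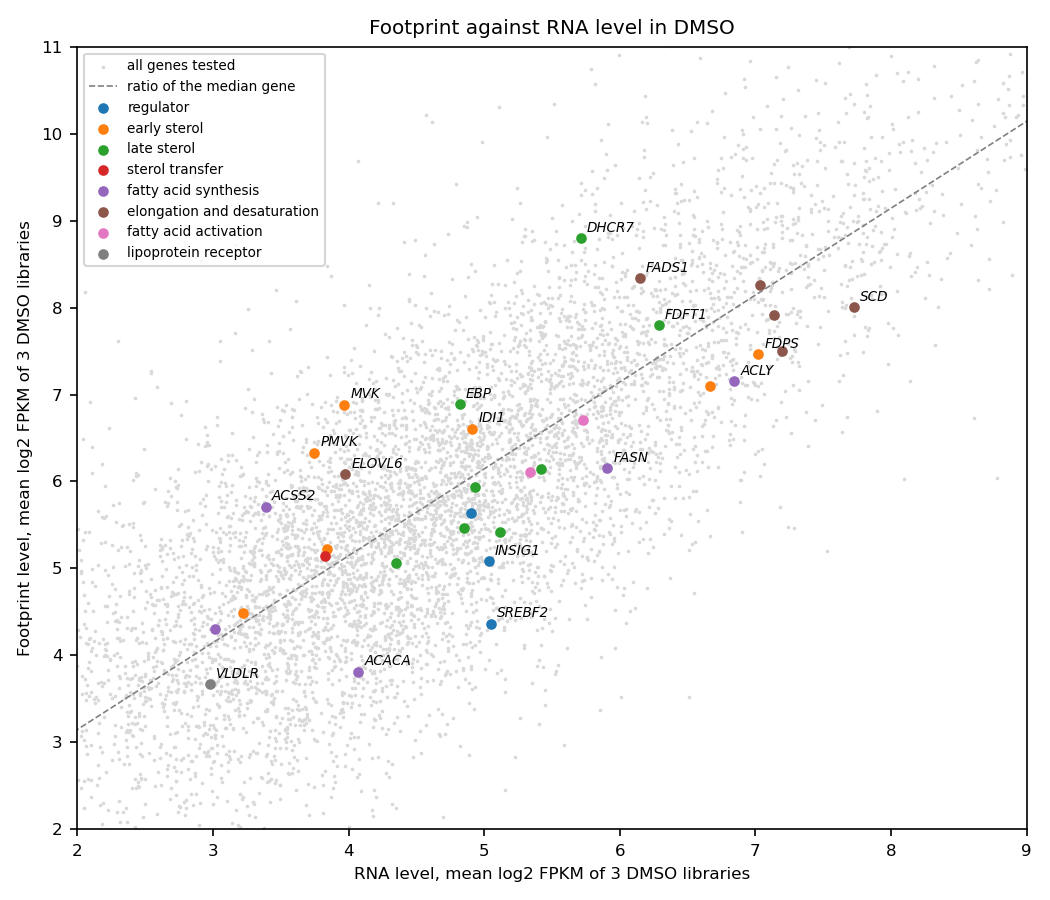
Mean log2 FPKM of footprints against mean log2 FPKM of RNA over the 3 DMSO libraries of each assay, for all genes tested (light grey) and for the members, coloured by role. The dashed line is the footprint to RNA ratio of the median gene, 2.21; DHCR7, MVK and PMVK lie well above it and SREBF2, ACACA and INSIG1 well below. Genes beyond the axis limits are not drawn.

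A wider list of 102 genes of lipid metabolism, of which 76 were listed, was read in the same way. In RNA 3 of the 76 rose, 1 fell and 72 did not pass, where 8.04% of all genes were called, 5.03% higher and 3.01% lower. An unadjusted p under 0.05 was reached by 21 of the 76, against 24.2% of all genes. Their median log2 fold change was 0.02, beside 0.01 over all genes. LRP8, a reelin receptor related to VLDLR, was at 15.2, 16.9 and 16.6 FPKM in DMSO and 19.3, 21.6 and 20.1 FPKM in AZD0095, and rose by 0.31 (limma adjusted p = 0.045). SLC25A1, the mitochondrial citrate carrier that feeds ACLY, was at 23.9, 24.0 and 23.6 FPKM in DMSO and 29.0, 28.5 and 29.0 FPKM in AZD0095, and rose by 0.27 (0.03). The elongase ELOVL7 rose by 0.45 (0.03) from a low level of 4.29 ± 0.0756 to 6.24 ± 0.749 FPKM (SD, n = 3). These 3 calls were lost when libraries were left out, with folds of similar size. Without DMSO replicates 1, 2 and 3 in turn the adjusted p was 0.12, 0.13 and 0.1 for LRP8, 0.073, 0.12 and 0.092 for SLC25A1, and 0.077, 0.12 and 0.089 for ELOVL7. Without AZD0095 replicate 2 it was 0.17 for LRP8 and 0.11 for SLC25A1, and without AZD0095 replicate 3 it was 0.12 for LRP8 and 0.1 for SLC25A1 and ELOVL7. LRP8 was also not called with median centring (0.062) or quantile normalization (0.061). Over the fits that lost the call the log2 fold change was 0.27 to 0.34 for LRP8, 0.26 to 0.28 for SLC25A1 and 0.38 to 0.46 for ELOVL7.

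The gene that fell was CHKA, a choline kinase of phosphatidylcholine synthesis. It was at 30.1, 36.4 and 33.5 FPKM in DMSO and 23.9, 20.5 and 20.9 FPKM in AZD0095, with a log2 fold change of -0.59 (limma adjusted p = 0.0087). Leaving out replicate 2 of DMSO gave -0.53 (adjusted p = 0.056) and leaving out replicate 2 of AZD0095 gave -0.55 (0.055), a like size with no call. In footprints and in translational efficiency 0 of the 76 passed.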

How the data were processed

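RNA-seq and ribosome footprint libraries of MDA-MB-231 cells, 3 per group, were analysed from FPKM values that the authors deposited in 1 table per library. The tools fastp, Bowtie2 and STAR and the build hg38 are named per the submitters' processing notes. What each did, its version, the counter and its use of strand are not given here. Titles call the RNA total RNA and the molecule field polyadenylated RNA, which is not settled here. Each table held 6785 rows, of which 8 repeated entries were dropped. Values were transformed as log2(FPKM + 1), so fold changes understate those of low genes, and a filter of a mean FPKM of at least 1 removed 0 genes. Groups and replicate numbers came from the labels. Two-sided tests were made with limma 3.58.1 with a variance trend in R 4.3.3, each assay alone, and translational efficiency as the assay by treatment interaction. P-values were adjusted by Benjamini-Hochberg over all 6777 genes and called under 0.05. Intervals are 95% limma intervals. Footprint depth was recovered from the steps of the values; the intervals and depths cover no error from duplicate reads. Scripts were tested on simulated data. Every listed member is named, with values by library for members called, not overlapping between groups or among the 2 smallest p of a role. Members, lists and tests were chosen with earlier results of these data known. Alternatives were other pseudocounts, filters, scalings, a replicate block, replicate 1 as a batch, no variance trend, other treatments of the assays' spread and leaving out each library. The replicate 1 term was chosen after seeing the data, and replicates 2 and 3 alone and depth as a covariate were likewise added after seeing them. Positions and promoters are from RefSeq GRCh38.p14, matched by symbol for all 33 members' positions.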

Additional observations from a re-analysis of the deposited data

How the results depend on the processing

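In RNA 545 genes and 3 members were called. The replicate numbers are not said to mark a shared culture, so same-numbered libraries were not taken as pairs in the main fit. Same-numbered libraries deviated together with correlations of 0.622, 0.086 and 0.489 in RNA and 0.009, -0.022 and 0.091 in footprints. In RNA the highest correlation with a library of another number was -0.314, 0.234 and 0.303 for DMSO replicates 1 to 3. The replicate 1 libraries thus varied together in RNA, which the main fit does not model. Deviations from the mean of a group are tied to each other, so the 0.489 of replicate 3 cannot be read apart from replicate 1. With the replicate block 1622 genes and 8 members were called, with replicate 1 as a batch 1660 and 8, and with replicates 2 and 3 only 1395 (656 higher, 739 lower) and 8. With 1 library left out the RNA count ran from 100 to 1112 genes and from 1 to 8 members, the lowest without DMSO replicate 2 or AZD0095 replicate 2 (116 genes) and the highest without AZD0095 replicate 1. It was 280 and 249 genes without DMSO replicate 1 and 3, and 214 without AZD0095 replicate 3. Median centring gave 532 of the 6777 genes and quantile normalization 529, each with 4 of the 33 members, adding IDI1. VLDLR kept its call in all of these fits. Footprints gave 0 genes under every alternative. Translational efficiency gave 1 gene without the variance trend and 0 to 4 with 1 library left out (4 without footprint DMSO replicate 1, 3 without replicate 2), and 0 members throughout. No direction of a called result reversed. Fits without 1 library assume that the reduced group varies like the other. Footprint depth limits what can be seen for single members.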
